A study of Homo sapiens with 18 samples.

Results

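AKR1B10 and 9 related genes of the oxidative stress response were followed through 9 groups of melanoma cells treated with inhibitors of CDK4/6 or PRMT5. AKR1B10 was chosen by its measured CPM, which was higher after 6 days than after 72 hours of palbociclib in CHL1 cells. The others were chosen as aldo-keto reductases (AKR1B1, AKR1C1, AKR1C2 and AKR1C3) or as targets of the transcription factor NRF2 (NQO1, HMOX1, GCLM, TXNRD1 and SRXN1). Of these 10 genes, 9 had a row among the 20705 genes of the count table. SRXN1, which encodes sulfiredoxin, had none, so its level was not analysed here. Because AKR1B10 was picked for its response to palbociclib in CHL1, its values in those comparisons are a description and were not tested.

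NRF2, encoded by NFE2L2, is held at a low level by KEAP1, which marks it for degradation, and is released when reactive electrophiles or oxidants modify KEAP1. It then binds antioxidant response elements in DNA, where BACH1 competes with it as a repressor. Its targets make glutathione, recycle thioredoxin, degrade heme and reduce quinones and carbonyls. Aldo-keto reductases are NADPH-dependent enzymes that reduce aldehydes and ketones. AKR1B10 acts on reactive carbonyls and on retinaldehyde.

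Both lines, CHL1 and A375, derive from human melanoma, are established in culture and carry the genotype label WT. The study's methods describe CHL1 as wild type for BRAF and NRAS with mutant p53, and A375 as BRAF mutant with wild-type p53. CHL1 was grown in DMEM and A375 in RPMI-1640, and the CHL1 libraries carry the name of a different library set from the A375 libraries of 72 hours that they were compared with, so line, medium and library set cannot be told apart in any comparison of the lines. In CHL1 the groups were DMSO for 72 hours (control), 1 µM of the CDK4/6 inhibitor palbociclib for 72 hours or 6 days (CDK4/6i), and GSK3326595, which inhibits PRMT5, at 500 nM for 72 hours (PRMT5i). A375 had the same 4 groups and a DMSO control of 6 days. Each group had 2 replicates, which gave 18 poly-A RNA-seq libraries. All CHL1 treatments were compared with the 72-hour control, since CHL1 had no control of 6 days. For CHL1 at 6 days, drug and time in culture therefore cannot be told apart. The A375 libraries of 6 days share the set name of CHL1, so time and library set cannot be told apart in A375. The methods speak of 2 replicates grown in each condition but do not say whether these were set up independently, so p-values measure the spread between these libraries, which may be technical. In bulk RNA, fewer cells that express a gene and less of its RNA per cell cannot be told apart.

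The libraries held 16213475 to 37424081 counts on genes. A level is given as CPM, a gene's count scaled to the size of its library with TMM over all 18 libraries, and a group with 3 counts or fewer in each library is called at the floor. A gene was a DEG (differentially expressed gene) at a Benjamini-Hochberg adjusted p below 0.05 in edgeR's quasi-likelihood test over all 20705 genes. The cell cycle genes CCNA2 and MKI67 fell in all 4 comparisons of CDK4/6i with control, with log2 fold changes from -2.22 to -1.17 (-1.92 and -1.52 in A375 at 6 days with a correction for GC content). E2F1 fell in A375 at 72 hours (-1.55, edgeR adjusted p = 0.00109) but was not called in the other 3, at -0.37 to -0.22. Of the drug targets, PRMT5 had a lower mRNA level under PRMT5i in CHL1 (4.41 against 8.69 CPM, log2 fold change -0.96, edgeR adjusted p = 0.0016), which was -0.44 and not called with that correction (edgeR adjusted p = 0.0652), and CDK6 was at 10.8 CPM in the CHL1 control and 583 CPM in the A375 control of 72 hours. Among melanocyte markers, MITF lay between 63.8 and 211 CPM over both lines, DCT between 36.3 and 142 CPM in CHL1 but at most 1.79 CPM in A375, and PMEL at most at 3.25 CPM. TYR lay at most at 5.02 CPM, TYRP1 at most at 4.015 CPM and S100B between 3.57 and 128 CPM over both lines. SOX10 and MLANA had no row. The immune marker PTPRC lay between 7.41 and 16.8 CPM in CHL1 and at most at 0.588 CPM in A375, while CD14 and CD79A were at most at 1.32 CPM in either line. The epithelial marker KRT8 lay at most at 3.47 CPM in CHL1 and between 12.8 and 188 CPM in A375, with EPCAM and KRT5 at most at 2.59 CPM. Of fibroblast markers, PDGFRB reached 9.71 CPM in CHL1 and 28.9 CPM in A375, COL1A1 1.715 and 25.0 CPM, and DCN at most 0.82 CPM. The endothelial marker VWF lay at most at 2.81 CPM. CD3E, CDH1, PECAM1, CDH5 and COL1A2 had no row. The libraries differed in how expression followed GC content. Measured as the gap in mean log2 CPM between the 10% of genes with the highest and the 10% with the lowest GC content, the trend was -2.70 in replicate 1 and -2.10 in replicate 2 of CHL1 PRMT5i, -2.41 and -1.202 in the 6-day control of A375, and between -0.38 and 0.62 in the other 14 libraries. Values with a correction for this trend are therefore given beside most of the calls that rest on these libraries.

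AKR1B10 and AKR1B1 are neighbours on chromosome 7 in GRCh37, at chr7:134212319-134226164 on the plus strand (ENSG00000198074) and chr7:134127108-134144036 on the minus strand (ENSG00000085662). Their coding sequences are 76.6% identical. In untreated cells AKR1B10 was the rarer by far. Per kilobase of exon, the CHL1 control held 1.02 CPM of AKR1B10 and 64.8 CPM of AKR1B1, and the A375 control of 72 hours held 1.00 and 40.0 CPM. These lengths are those of all annotated exons joined.

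In CHL1, AKR1B10 lay at 1.83 and 1.77 CPM in the control libraries, at 6.01 and 5.54 CPM after 72 hours of CDK4/6i and at 25.6 and 19.0 CPM after 6 days. The 3 groups did not overlap. The level was 3.19-fold that of the control at 72 hours (log2 fold change 1.68, SE 0.23) and 12.5-fold at 6 days (3.64, SE 0.24). Between 72 hours and 6 days the difference was 1.97 on the log2 scale (SE 0.21), which is the value the gene was chosen for. The counts behind these levels were 53 and 50 in the control and 671 and 399 at 6 days. Under PRMT5i the libraries held 1.68 and 1.65 CPM, just under both controls, and the log2 fold change of -0.10 (SE 0.25) was not called (edgeR adjusted p = 0.793), nor was the -0.01 with the GC correction (edgeR adjusted p = 0.984).

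In A375, AKR1B10 lay at 1.54 and 2.00 CPM in the 72-hour control and at 4.12 and 4.46 CPM after 72 hours of CDK4/6i. The groups did not overlap, and the log2 fold change of 1.21 (SE 0.45) was not called (edgeR adjusted p = 0.0855). With only these 2 groups in the fit, the same fold change was called at an edgeR adjusted p of 0.00269, and it was also called in a fit of the 6 libraries of 72 hours with the replicate number as a block (edgeR adjusted p = 9.88e-06). Under PRMT5i the A375 libraries held 2.58 and 2.79 CPM, and the log2 fold change of 0.58 (SE 0.46) was not called (edgeR adjusted p = 0.589). At 6 days AKR1B10 was low in both A375 groups, at 0.0902 and 0.626 CPM in the control and at 0.519 and 0.374 CPM under CDK4/6i. These values overlapped and rest on 3 to 20 counts per library. The log2 fold change of 0.32 (SE 0.58, edgeR adjusted p = 0.689) ran from -0.52 without replicate 1 of the control to 2.27 without replicate 2, which alone was called (edgeR adjusted p = 0.00935). The 6-day control held 0.202 times the AKR1B10 of the 72-hour control, a difference in which time and library set cannot be told apart. The response of AKR1B10 to 72 hours of CDK4/6i in CHL1 exceeded that in A375 by 0.41 on the log2 scale (SE 0.51), which is given without a test.

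Ordered by mean, AKR1B10 was highest in CHL1 after 6 days of CDK4/6i (22.3 CPM), followed by CHL1 after 72 hours (5.77 CPM), A375 after 72 hours (4.29 CPM) and A375 under PRMT5i (2.69 CPM). The libraries of each of these groups lay apart from those of the next. The CHL1 control (1.80 CPM), the A375 control of 72 hours (1.77 CPM) and CHL1 under PRMT5i (1.66 CPM) came next, and the second of these overlapped with both others. The A375 groups of 6 days were the lowest, at 0.447 CPM under CDK4/6i and 0.358 CPM in the control.

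**Figure D1:**
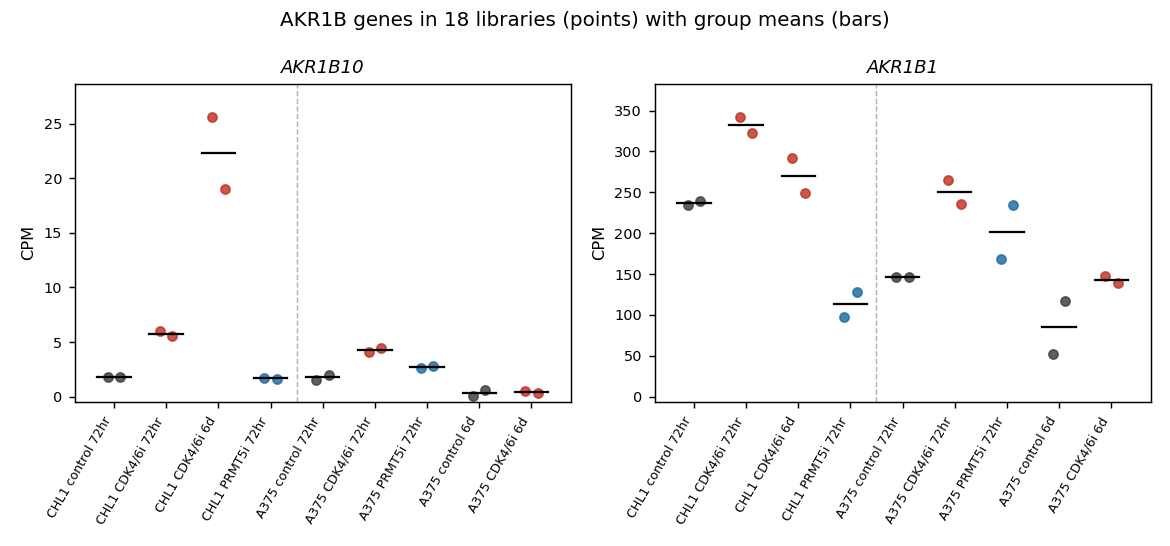
AKR1B10 (left) and AKR1B1 (right) in CPM on linear axes for the 9 groups, with a point for each library and a bar at the group mean. AKR1B10 reached 25.6 and 19.0 CPM in CHL1 after 6 days of CDK4/6i and stayed at or under 6.01 CPM in every other library, while AKR1B1 was lowest in the A375 control of 6 days and in CHL1 under PRMT5i.

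AKR1B1 encodes aldose reductase, which turns glucose into sorbitol. In the CHL1 control it lay at 235 and 239 CPM, and after 72 hours of CDK4/6i at 342 and 322 CPM. The groups did not overlap, but the log2 fold change of 0.48 (SE 0.17) was not called (edgeR adjusted p = 0.131). At 6 days the libraries held 292 and 249 CPM, with a log2 fold change of 0.21 (SE 0.17) that was not called (edgeR adjusted p = 0.458). From 72 hours to 6 days, AKR1B1 differed by -0.28 on the log2 scale (SE 0.17) while AKR1B10 differed by 1.97. In A375 AKR1B1 lay at 146 and 146 CPM in the 72-hour control and at 266 and 236 CPM under CDK4/6i, with a log2 fold change of 0.72 (SE 0.28, edgeR adjusted p = 0.106) that was called with the replicate block (edgeR adjusted p = 1.39e-12). It was called at 6 days in A375, with 147 and 139 CPM against 52.35 and 117 CPM (log2 fold change 0.74, SE 0.28, edgeR adjusted p = 0.0463). Replicate 2 of the control lay nearer to both treated libraries than to replicate 1. With the GC correction the difference was 0.28 (edgeR adjusted p = 0.322), and against the 72-hour control it was -0.08 (edgeR adjusted p = 0.874). The call was also lost in 3 of 4 fits without 1 of these libraries, all but the one without replicate 2 of the control (edgeR adjusted p between 0.105 and 0.293).

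The genes whose pattern was most like that of AKR1B10 were found by Pearson's r of log2(CPM + 1). Over the 8 CHL1 libraries they were GBP1 (r = 0.993), AC002511.1 (0.992), RP11-133L14.5 (0.984), ILDR2 (0.977) and KLHL31 (0.975), out of 14675 genes. Each was highest after 6 days of CDK4/6i, and GBP1, which encodes a guanylate-binding protein, had 8.05 CPM there and 3.15 CPM in the control. Over all 18 libraries they were PCSK1N (0.937), CCDC115 (0.920), RP11-395A13.2 (0.894), FAM167B (0.877) and ASL (0.874), out of 15657 genes. ASL, the argininosuccinate lyase of the urea cycle, had 82.3 CPM in CHL1 after 6 days and 33.2 CPM in its control. Among the members, r over the 8 CHL1 libraries was 0.56 for AKR1B1, 0.55 for HMOX1, -0.16 for TXNRD1, -0.35 for GCLM and -0.43 for NQO1. Over all 18 it was 0.73 for AKR1B1, 0.35 for TXNRD1, 0.25 for HMOX1, 0.02 for GCLM, -0.62 for NQO1 and between -0.52 and -0.42 for the AKR1C genes. TXNRD1 and GCLM thus differed in sign between the sets. The points share lines, treatments and library sets, and the correlations are a description.

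AKR1C1, AKR1C2 and AKR1C3 lie together on chromosome 10 and encode hydroxysteroid dehydrogenases that reduce steroids and prostaglandins. In GRCh37 they stand at chr10:5005445-5025475 (plus strand, ENSG00000187134), chr10:5029967-5060223 (minus strand, ENSG00000151632) and chr10:5077546-5149878 (plus strand, ENSG00000196139). The coding sequences of AKR1C1 and AKR1C2 share 950 of 969 bases, and those of AKR1C3 are 91.4% and 91.0% identical to them, so reads may have been split between these genes or left out where they fitted both. The windows around the start sites of AKR1C1 and AKR1C2 are shown because they are almost as alike. They run from 250 bases before to 50 bases after the start in RefSeq on GRCh38.p14, and capitals mark the bases that differ or face a gap in their alignment, in which 288 of 296 columns were identical.
AKR1C1, chr10:4963165-4963464, plus strand: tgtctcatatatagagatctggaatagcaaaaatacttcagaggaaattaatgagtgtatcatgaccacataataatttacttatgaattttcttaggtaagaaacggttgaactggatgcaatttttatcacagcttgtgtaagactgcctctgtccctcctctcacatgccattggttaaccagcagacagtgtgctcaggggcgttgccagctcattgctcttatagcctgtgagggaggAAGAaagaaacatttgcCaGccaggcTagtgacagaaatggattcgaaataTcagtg
AKR1C2, chr10:5003808-5004107, minus strand: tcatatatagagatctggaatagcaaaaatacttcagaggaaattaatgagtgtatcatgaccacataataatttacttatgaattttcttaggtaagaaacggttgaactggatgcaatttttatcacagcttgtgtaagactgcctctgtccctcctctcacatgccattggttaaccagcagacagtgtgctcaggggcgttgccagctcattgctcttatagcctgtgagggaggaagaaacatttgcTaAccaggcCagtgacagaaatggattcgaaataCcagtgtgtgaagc

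The AKR1C genes separated the cell lines. In the 8 CHL1 libraries the counts of AKR1C1 summed to 1, those of AKR1C2 to 0 and those of AKR1C3 to 2, so all 3 genes were at the floor in every CHL1 group and no response could be measured there. In the A375 control of 72 hours AKR1C1 lay at 6.03 and 6.99 CPM, AKR1C2 at 9.22 and 11.5 CPM and AKR1C3 at 15.2 and 17.2 CPM. Against a floor of 3 counts per library, they were at least 62.0-fold, 98.8-fold and 154.1-fold higher in A375 than in the CHL1 control. All 3 were DEGs between the controls (edgeR adjusted p between 2.17e-09 and 3.03e-07). AKR1B1 was 1.62-fold higher in CHL1 (edgeR adjusted p = 0.0278) and GCLM 1.66-fold higher in CHL1 (edgeR adjusted p = 0.0202), a log2 difference of 0.73 that was 0.31 and not called with the GC correction (edgeR adjusted p = 0.30). Without 1 library, AKR1B1 lost its call in 4 of 4 cases and GCLM in 2 of 4. AKR1B10, NQO1, HMOX1 and TXNRD1 were not called, with log2 differences from -0.04 to 0.17. In all, 5 of the 9 genes were DEGs between the untreated lines, beside 58.9% of all genes, and the libraries of 5 did not overlap, as for 84.2%.

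Within A375 the AKR1C genes were not called under any treatment in the fit of all 10 libraries. Their summed level was 30.4 and 35.7 CPM in the 72-hour control, 43.95 and 51.9 CPM after 72 hours of CDK4/6i and 33.5 and 44.02 CPM under PRMT5i. The fold changes at 72 hours of CDK4/6i were 0.62 (SE 0.40) for AKR1C1, 0.33 (SE 0.32) for AKR1C2 and 0.51 (SE 0.31) for AKR1C3 on the log2 scale. At 6 days the summed level was 20.9 and 52.2 CPM in the control and 41.1 and 42.4 CPM under CDK4/6i, so both treated libraries lay between the controls. For single genes, AKR1C2 lay at 8.50 and 19.4 CPM in that control and 22.8 and 19.5 CPM under CDK4/6i (log2 fold change 0.59, SE 0.31, edgeR adjusted p = 0.139), while AKR1C1 lay at 5.53 and 16.9 CPM and at 5.96 and 8.68 CPM (-0.63, SE 0.38, edgeR adjusted p = 0.195).

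**Figure D2:**
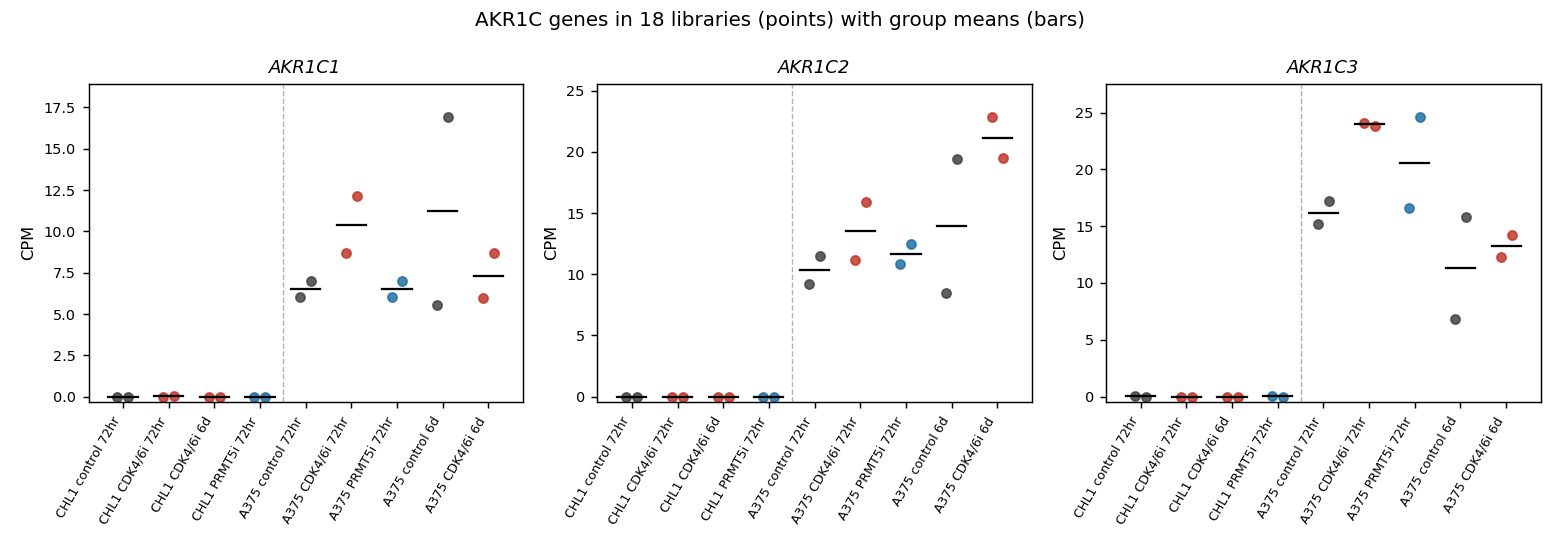
AKR1C1, AKR1C2 and AKR1C3 in CPM on linear axes for the 9 groups, with a point for each library and a bar at the group mean. The CHL1 libraries (left of the dashed line) held at most 1 count of each gene, and the A375 control libraries of 6 days lay far apart from each other.

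NQO1, HMOX1, GCLM and TXNRD1 are standard readouts of NRF2. NQO1 reduces quinones with electrons from NADH or NADPH, HMOX1 breaks down heme, GCLM is the modifier subunit of the enzyme that starts glutathione synthesis, and TXNRD1 recycles thioredoxin in the cytosol. In GRCh37 NQO1 is at chr16:69740899-69760571 (minus strand, ENSG00000181019), HMOX1 at chr22:35776354-35790207 (plus strand, ENSG00000100292), GCLM at chr1:94350755-94375012 (minus strand, ENSG00000023909) and TXNRD1 at chr12:104609557-104744085 (plus strand, ENSG00000198431). Per kilobase of exon, the CHL1 control held 66.9 CPM of TXNRD1, 54.0 CPM of NQO1, 18.1 CPM of GCLM and 7.07 CPM of HMOX1.

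The core of the antioxidant response element, TGACNNNGC, was searched for on both strands of the RefSeq start windows of 300 bases (GRCh38.p14). No other motif and no sequence outside these windows was searched, so a core farther from the start would have been missed. Of the members, SRXN1 included, 8 had at least 1 window, and AKR1B10 and HMOX1 had none. The core was found for 2 of them, GCLM and TXNRD1, in 3 of 11 windows, and in 13.3% of all 35116 windows. The window of GCLM and that of TXNRD1 with 2 matches are shown with the matches in capitals, and the other TXNRD1 window held 1 match. The match of GCLM, and the second of the 2 printed for TXNRD1, read as the core on the opposite strand.
GCLM, chr1:93909381-93909680, minus strand: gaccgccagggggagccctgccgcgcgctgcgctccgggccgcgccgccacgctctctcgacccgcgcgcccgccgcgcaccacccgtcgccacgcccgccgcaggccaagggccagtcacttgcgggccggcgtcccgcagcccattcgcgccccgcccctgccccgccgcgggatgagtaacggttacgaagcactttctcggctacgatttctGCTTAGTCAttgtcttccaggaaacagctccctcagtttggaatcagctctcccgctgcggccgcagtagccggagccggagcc
TXNRD1, chr12:104215529-104215828, plus strand: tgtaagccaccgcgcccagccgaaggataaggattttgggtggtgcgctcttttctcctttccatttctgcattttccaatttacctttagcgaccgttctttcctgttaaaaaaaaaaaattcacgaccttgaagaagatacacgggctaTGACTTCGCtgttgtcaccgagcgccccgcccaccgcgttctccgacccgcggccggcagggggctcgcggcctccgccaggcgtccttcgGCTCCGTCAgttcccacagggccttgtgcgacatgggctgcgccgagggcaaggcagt

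None of these 4 genes was called higher in CHL1 under CDK4/6i at either time. NQO1 lay at 158 and 162 CPM in the control, at 128 and 142 CPM after 72 hours of CDK4/6i and at 103 and 73.2 CPM after 6 days. Each group lay below the one before it. The fall at 6 days was to 0.555 times the 72-hour control (log2 fold change -0.85, SE 0.19, edgeR adjusted p = 0.0114), and that at 72 hours was not called (-0.25, SE 0.19, edgeR adjusted p = 0.521). The call at 6 days was lost without either control library or without replicate 2 of 6 days (edgeR adjusted p between 0.0605 and 0.0942). HMOX1 lay at 14.8 and 17.8 CPM in the control, 19.0 and 23.3 CPM at 72 hours and 20.9 and 20.0 CPM at 6 days, with log2 fold changes of 0.37 (SE 0.33) and 0.34 (SE 0.33). GCLM and TXNRD1 overlapped with the control at both times, and GCLM lay at 152 and 86.8 CPM in the 6-day libraries against 104 and 92.3 CPM in the control. Of the 5 members tested, 0 were DEGs at 72 hours in edgeR and in DESeq2, with 1 at an unadjusted p below 0.05 (AKR1B1), beside 4.98% of all genes. Their libraries did not overlap with the control for 3 of 5, as for 58.1% of all genes. At 6 days 1 of 5 was a DEG, beside 16.6% of all genes, and 3 of 5 did not overlap with the control, as for 60.8%.

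PRMT5i gave the CHL1 genes a different pattern. GCLM lay at 239 and 359 CPM against 104 and 92.3 CPM in the control, a 3.09-fold rise (log2 fold change 1.63, SE 0.27, edgeR adjusted p = 4.51e-04). AKR1B1 fell to 97.4 and 128 CPM from 235 and 239 CPM (-1.05, SE 0.17, edgeR adjusted p = 4.17e-04), and NQO1 to 104 and 82.5 CPM from 158 and 162 CPM (-0.77, SE 0.19, edgeR adjusted p = 0.00479). HMOX1 lay at 5.73 and 14.8 CPM and TXNRD1 at 621 and 471 CPM, and neither was called. Thus 3 of 6 members tested were DEGs, beside 54% of all genes, and 5 of 6 did not overlap with the control, as for 75.8%. Without replicate 2 of PRMT5i, HMOX1 (-1.49, edgeR adjusted p = 2.79e-04) and TXNRD1 (0.48, edgeR adjusted p = 0.041) were called as well.

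The GC trend of the PRMT5i libraries ran along with these values. GCLM has the lowest GC content of the 9 genes in its longest transcript (37.3%) and HMOX1 and AKR1B1 the highest (58.5% and 53.5%). With the GC correction the log2 fold change of GCLM was 0.57 (SE 0.19, edgeR adjusted p = 0.0409), that of AKR1B1 -0.36 (SE 0.12, edgeR adjusted p = 0.0379) and that of NQO1 -1.09 (SE 0.15, edgeR adjusted p = 7.64e-04). GCLM was then 1.49-fold and AKR1B1 0.777-fold the control level. HMOX1 had -0.65 without and 0.37 with the correction and was called in neither fit.

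**Figure D3:**
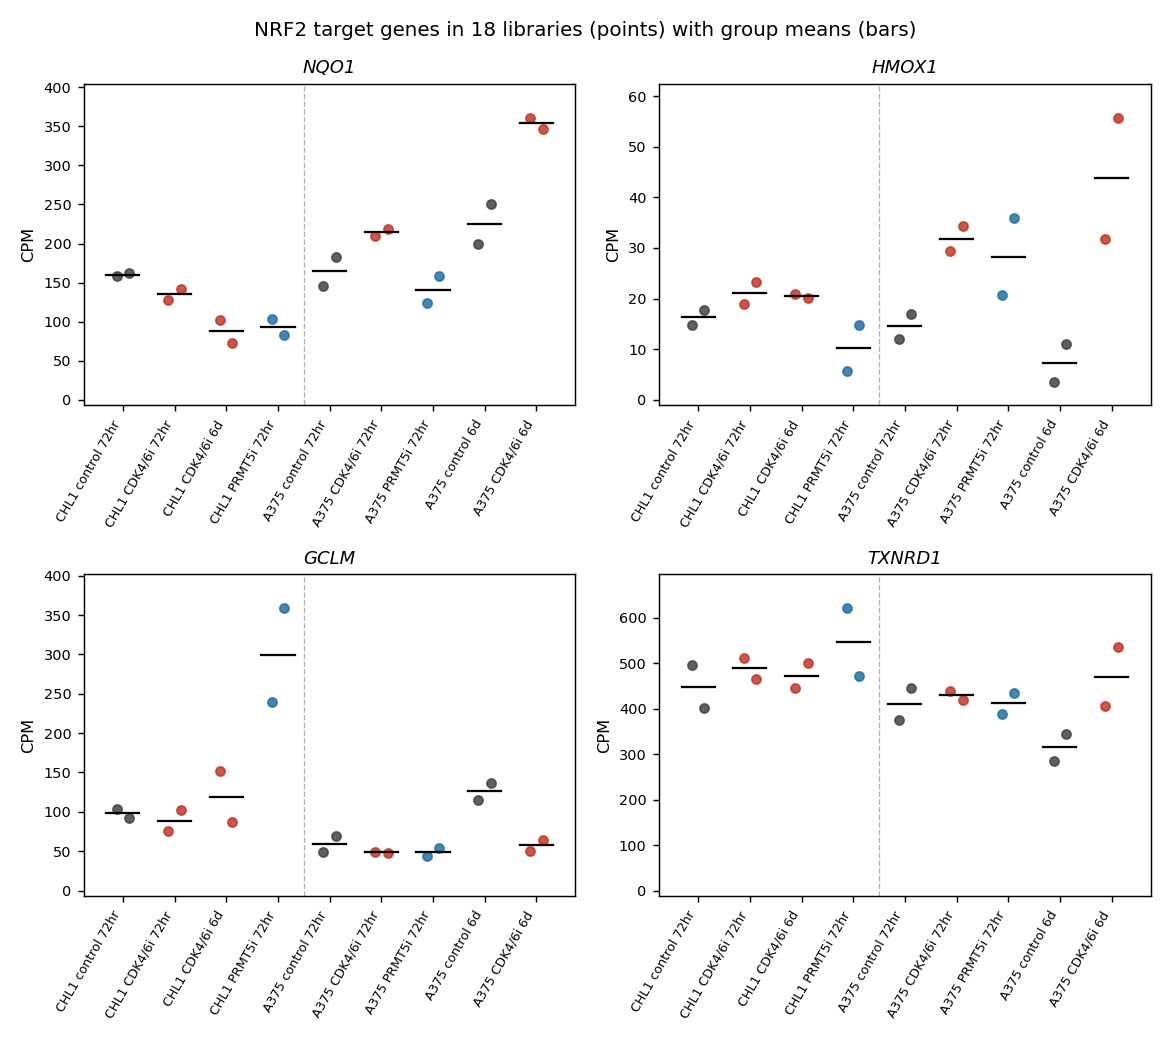
NQO1, HMOX1, GCLM and TXNRD1 in CPM on linear axes for the 9 groups, with a point for each library and a bar at the group mean. NQO1 was at 103 and 73.2 CPM in CHL1 after 6 days of CDK4/6i and at 361 and 347 CPM in A375 at that time, while GCLM was highest in CHL1 under PRMT5i.

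In A375, HMOX1 lay at 12.0 and 17.1 CPM in the 72-hour control, at 29.4 and 34.3 CPM under CDK4/6i and at 20.6 and 35.9 CPM under PRMT5i. Neither log2 fold change, 1.07 (SE 0.41, edgeR adjusted p = 0.095) or 0.94 (SE 0.41, edgeR adjusted p = 0.264), was called. NQO1 lay at 146 and 183 CPM in the control and at 210 and 219 CPM under CDK4/6i (log2 fold change 0.33, SE 0.20). TXNRD1 overlapped with the control, with a log2 fold change of 0.01 (SE 0.20) under CDK4/6i and -0.01 (SE 0.20) under PRMT5i. At 72 hours of CDK4/6i 0 of 9 members were DEGs in edgeR or DESeq2, with 3 at an unadjusted p below 0.05 (AKR1B10, AKR1B1 and HMOX1), beside 13.3% of all genes. The libraries of 7 of the 9 did not overlap with the control, as for 66.3% of all genes. The count changed with the libraries that shared in the estimate of the spread. With only the groups compared in the fit, 6 of 9 were DEGs, all up-regulated, beside 33.5% of all genes, and without the 6-day control in the fit 4 of 9 were (AKR1B10, AKR1B1, AKR1C3 and HMOX1), beside 27.7%. The replicate differences of control and CDK4/6i correlated weakly in A375 at 72 hours (r = 0.13, against 0.322 in CHL1). Whether equal replicate numbers belong together is not known. With the replicate number as a block in a fit of the 6 A375 libraries of 72 hours, 7 of 9 were called (edgeR adjusted p between 8.42e-18 and 0.00133), beside 42.3% of all genes. GCLM was lower there, and AKR1B10, AKR1B1, AKR1C1, AKR1C3, NQO1 and HMOX1 were higher. Without the block the same libraries gave 5, beside 31%. Under PRMT5i 0 of 9 were DEGs in edgeR or DESeq2, with 1 at an unadjusted p below 0.05 (HMOX1), beside 2.61% of all genes, and 3 of 9 did not overlap with the control, as for 53.1%. The replicate block gave 5 there, with AKR1B1, AKR1C3 and HMOX1 higher and NQO1 and GCLM lower, beside 29.5% of all genes, and the same libraries without the block gave 2, beside 15.8%.

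After 6 days of CDK4/6i in A375, 4 members rose and 1 fell, beside 21.8% of all genes called higher and 21.3% called lower (43.1% in all). HMOX1 lay at 31.7 and 55.8 CPM against 3.43 and 11.0 CPM in the control, a 6.00-fold rise (log2 fold change 2.58, SE 0.42, edgeR adjusted p = 2.63e-04). NQO1 lay at 361 and 347 CPM against 199 and 250 CPM (0.65, SE 0.20, edgeR adjusted p = 0.0150), and TXNRD1 at 405 and 535 CPM against 286 and 344 CPM (0.57, SE 0.20, edgeR adjusted p = 0.0299). The other rise was that of AKR1B1, given above. GCLM fell to 50.3 and 64.6 CPM from 115 and 137 CPM (-1.14, SE 0.20, edgeR adjusted p = 4.97e-04). In all 5 genes the treated libraries lay apart from the controls, as for 6 of the 9 members and 68% of all genes. The count of 5 became 8 without replicate 2 of the control and 3 without any 1 of the other libraries compared.

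With the GC correction, the log2 fold changes at 6 days were 2.09 for HMOX1 (edgeR adjusted p = 0.00211), 0.75 for NQO1 (edgeR adjusted p = 0.0078) and 0.63 for TXNRD1 (edgeR adjusted p = 0.0157), and that of GCLM was -0.43 and no longer called (edgeR adjusted p = 0.192). Against the 72-hour control, which belongs to the other library set, HMOX1 was at 1.54 (edgeR adjusted p = 0.00902), NQO1 at 1.06 (edgeR adjusted p = 7.39e-04), GCLM at -0.09 (edgeR adjusted p = 0.78) and TXNRD1 at 0.15 and no longer called (edgeR adjusted p = 0.613). GCLM was 2.13-fold higher and HMOX1 0.496-fold as high in the 6-day control as in the 72-hour control. NQO1 and TXNRD1 each lost their call in 2 of 4 fits without 1 of these libraries. For the response at 6 days minus that at 72 hours, 0 of 9 members were called in edgeR or DESeq2, with 3 at an unadjusted p below 0.05, beside 1.08% of all genes. Here HMOX1 differed by 1.51 (SE 0.57, edgeR adjusted p = 0.175) and GCLM by -0.79 (SE 0.29, edgeR adjusted p = 0.16). Without replicate 2 of the 6-day control, 4 of 9 were called, HMOX1 among them (2.62, edgeR adjusted p = 0.00187).

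**Figure D4:**
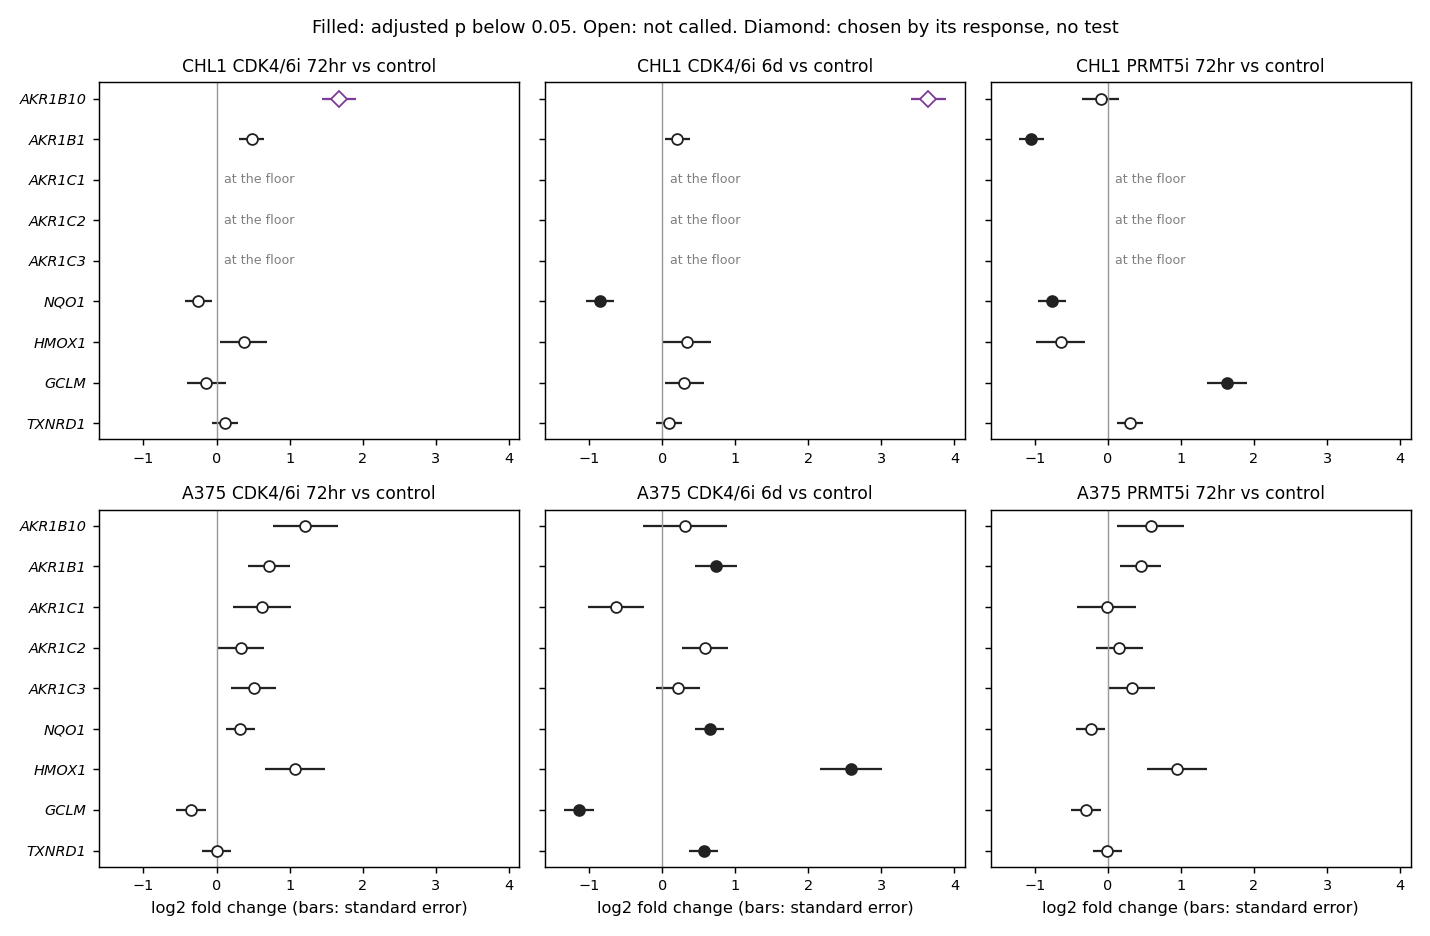
Log2 fold changes of the 9 genes against the control (x axis) in the 6 treatment comparisons, with bars of 1 standard error. Filled points passed an edgeR adjusted p of 0.05, open points did not, and diamonds mark AKR1B10 where it was not tested, as the most raised member in CHL1 at both times of CDK4/6i. HMOX1 at 6 days in A375 and GCLM under PRMT5i in CHL1 had the highest values among the members tested.

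The lines were also compared in their responses. To 72 hours of CDK4/6i, 0 of 5 members differed between CHL1 and A375 in edgeR or DESeq2, with 1 at an unadjusted p below 0.05 (NQO1), beside 0.642% of all genes. The response of NQO1 in CHL1 minus that in A375 was -0.63 (SE 0.27, edgeR adjusted p = 0.432) and that of HMOX1 was -0.76 (SE 0.61, edgeR adjusted p = 0.783). With only the groups compared in the fit, both were called. To PRMT5i, 3 of 6 members differed in edgeR, beside 40.9% of all genes, and 2 in DESeq2, where HMOX1 was not called (adjusted p = 0.0852). The response in CHL1 minus that in A375 was 1.89 for GCLM (SE 0.36, edgeR adjusted p = 7.46e-04), -1.53 for AKR1B1 (SE 0.37, edgeR adjusted p = 0.00312) and -1.63 for HMOX1 (SE 0.62, edgeR adjusted p = 0.0419). With the GC correction these 3 were no longer called, at 0.78, -0.72 and -0.47 (edgeR adjusted p between 0.0866 and 0.537), and NQO1 was (-0.86, edgeR adjusted p = 0.0396).

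**Figure D5:**
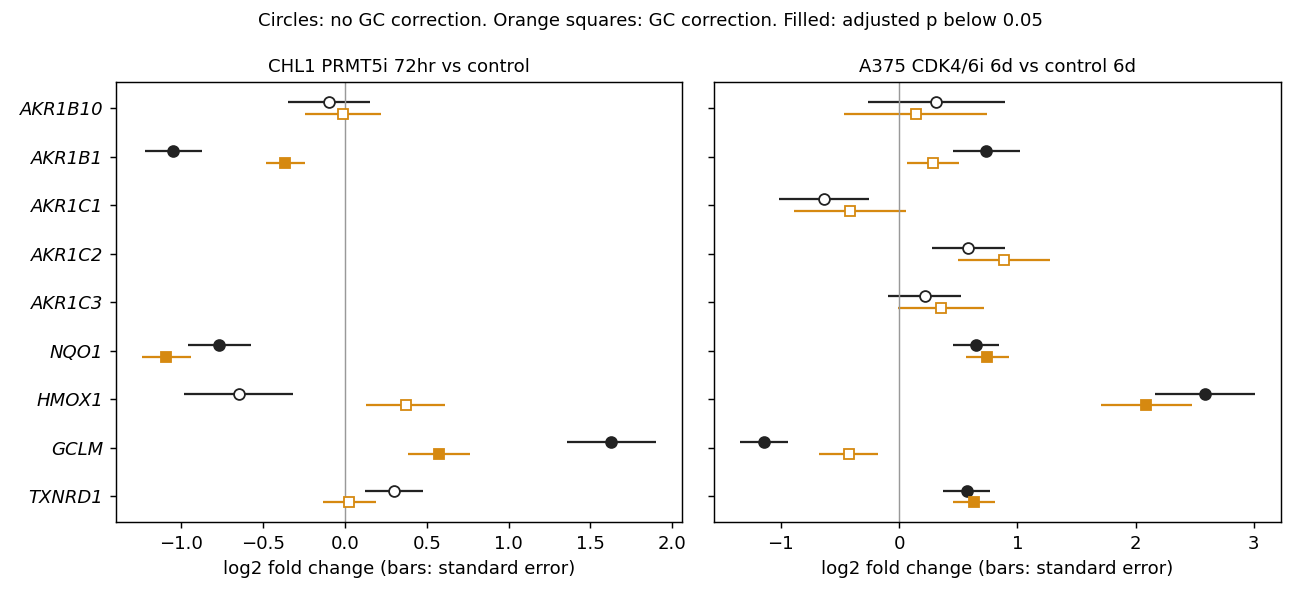
Log2 fold changes of the members that could be tested in the 2 comparisons touched by a GC trend, CHL1 PRMT5i (left) and A375 CDK4/6i at 6 days (right), without (circles) and with (orange squares) the GC correction, with bars of 1 standard error and filled symbols below an adjusted p of 0.05. GCLM went from 1.63 to 0.57 on the left and from -1.14 to -0.43 on the right, while NQO1 kept its direction and call on both sides.

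Of the regulators of NRF2, NFE2L2 lay at 208 and 205 CPM in the CHL1 control and 437 and 434 CPM under PRMT5i, a rise of 1.10 on the log2 scale (SE 0.16, edgeR adjusted p = 2.58e-04), which was 0.35 with the GC correction (edgeR adjusted p = 0.0309). KEAP1 fell by 1.08 there (edgeR adjusted p = 0.00154) but stood at 0.10 with the correction (edgeR adjusted p = 0.52). BACH1 lay at 161 and 188 CPM in the CHL1 control and at 119 and 95.5 CPM after 6 days of CDK4/6i, a fall of 0.69 on the log2 scale (SE 0.17, edgeR adjusted p = 0.0170). It was also called higher under PRMT5i in CHL1 and lower at 6 days in A375, but in neither with the GC correction (edgeR adjusted p of 0.111 and 0.533). KEAP1 was called higher in A375 at 6 days, by 0.69 on the log2 scale (edgeR adjusted p = 0.0149), but with the correction the difference was 0.10 (edgeR adjusted p = 0.423). Under CDK4/6i neither NFE2L2 nor KEAP1 was called in CHL1 at either time, with log2 fold changes from -0.15 to 0.00.

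Of 115 other genes in 9 lists (NRF2 regulators, other aldo-keto reductases, glutathione, thioredoxin and peroxiredoxin, superoxide and peroxide enzymes, NADPH, heme and iron, other NRF2 targets and retinoid metabolism), 6 rose and 1 fell among 110 tested in CHL1 after 72 hours of CDK4/6i, and 11 rose and 7 fell after 6 days. These were 6.36% and 16.4% of the genes, near the 4.98% and 16.6% called among all genes. The medians of their log2 fold changes were 0.10 and 0.03, against 0.00 and 0.03 over all genes. With only the groups compared in the fit, 23 rose and 7 fell at 72 hours, beside 20.3% of all genes. At 6 days 14 rose and 8 fell in such a fit, beside 18.6%. With the GC correction 18 of 106 rose and 3 fell at 72 hours, beside 15.8% of all genes. For 6 days the correction gave 17 of 105 higher and 13 lower, beside 32.3%. At 72 hours 4 of 21 glutathione genes were among those higher in the edgeR fit of all 8 CHL1 libraries. None of the 10 regulators, 7 other aldo-keto reductases, 8 heme and iron genes or 12 retinoid genes was called in that fit. DESeq2 called 1 regulator higher and 1 lower, 1 heme and iron gene and 1 retinoid gene higher and 0 of the aldo-keto reductases. With the GC correction edgeR called 1 regulator higher and 1 lower (BACH1). It also called 1 aldo-keto reductase, 2 heme and iron genes and 1 retinoid gene higher. With only the groups compared, 2 regulators were higher and 2 lower, and 3 heme and iron genes and 2 retinoid genes were higher. CHAC1, which degrades glutathione, rose most at 72 hours (8.70 and 11.7 CPM against 2.63 and 3.01 CPM, log2 fold change 1.85, SE 0.38, edgeR adjusted p = 0.0203), and PIR, which encodes pirin, fell (-0.97, SE 0.22, edgeR adjusted p = 0.0312). At 6 days TXNIP, an inhibitor of thioredoxin, rose most (45.7 and 68.6 CPM against 16.2 and 12.3 CPM, log2 fold change 2.01, SE 0.28, edgeR adjusted p = 0.00118), and the glutathione transferase gene GSTK1 fell most (-1.86, SE 0.38, edgeR adjusted p = 0.00717).

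Under PRMT5i in CHL1, 18 of 109 rose and 55 fell (67%, beside 54% of all genes), with a median of -0.55 against 0.00 over all genes. Lower levels were called for 13 of 21 glutathione genes, 6 of 11 retinoid genes and 4 of 8 heme and iron genes. With the GC correction these were 8 of 21, 3 of 10 and 3 of 7. Of 16 thioredoxin and peroxiredoxin genes 6 were higher and 4 lower, and with the correction 3 and 2. After GC correction 11 of 105 rose and 28 fell, beside 34.7% of all genes called. Of the NADPH-producing enzymes 5 of 8 were lower in both fits. SLC7A11, the cystine transporter, rose most (202 and 191 CPM against 80.8 and 61.6 CPM, log2 fold change 1.49, SE 0.21, edgeR adjusted p = 1.90e-04), but was at 0.30 and not called with the correction (edgeR adjusted p = 0.449). In A375 under PRMT5i the replicate block called 21 of 111 higher and 17 lower, beside 29.5% of all genes. In the fit of all 10 A375 libraries 1 of 111 rose and 1 fell (1.8%, beside 2.61% of all genes). These were TXNIP (179 and 177 CPM against 78.6 and 80.3 CPM, log2 fold change 1.15, SE 0.28, edgeR adjusted p = 0.0426) and SLC7A11 (22.4 and 24.6 CPM against 43.3 and 45.7 CPM, -0.94, SE 0.20, edgeR adjusted p = 0.0196). TXNIP also had the largest rise of these genes in A375 after 72 hours of CDK4/6i (log2 fold change 1.79, SE 0.29, edgeR adjusted p = 7.71e-04), where 13 of 112 rose and 0 fell (11.6%, beside 13.3% of all genes). In DESeq2 15 rose and 0 fell there, beside 17.8% of all genes tested. In edgeR 10 had a lower level at an unadjusted p below 0.05. With only the libraries without a GC trend in the fit, 29 rose and 10 fell, beside 27.7% of all genes. With the replicate block these were 46 and 16, beside 42.3%. At 6 days 38 of 112 rose and 9 fell (42%, beside 43.1% of all genes), with a median of 0.33 against 0.10 over all genes. With the GC correction 26 of 106 rose and 9 fell, beside 43.2% of all genes. Against the 72-hour control 13 rose and 13 fell, beside 31.2%. Among the other NRF2 target and detoxification genes 9 of 20 rose, beside 21.8% of all genes called higher. With the GC correction 4 of 19 rose and 1 fell. Only 3 of 20 rose, and 0 fell, with only the groups compared in the fit, and 3 rose and 2 fell against the 72-hour control. Of the superoxide and peroxide enzymes 1 of 7 rose and 2 fell, and with the GC correction 2 rose and 1 fell. OSGIN1, an NRF2 target, rose most (11.3 and 17.3 CPM against 1.20 and 4.10 CPM, log2 fold change 2.41, SE 0.41, edgeR adjusted p = 3.23e-04, and 1.93 with the GC correction), and SOD3, an extracellular superoxide dismutase, fell most (3.22 and 0.908 CPM against 13.8 and 4.35 CPM, -2.13, SE 0.51, edgeR adjusted p = 0.00390, and -2.52 with the GC correction).

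Of the other aldo-keto reductase genes, 9 had a row. In CHL1 0 of 7 tested were DEGs in edgeR or DESeq2 under CDK4/6i at either time, with 0 and 1 at an unadjusted p below 0.05. With the GC correction edgeR called 1 of 7 higher at each time, beside 15.8% and 32.3% of all genes called. This was KCNAB1, at 0.40 on the log2 scale after 72 hours (edgeR adjusted p = 0.029) and 0.48 after 6 days (edgeR adjusted p = 0.0071). In A375 0 of 9 were DEGs in either tool under CDK4/6i or PRMT5i at 72 hours, with 1 each at an unadjusted p below 0.05. Of all genes, edgeR called 13.3% and 2.61% there. The replicate block called 2 and 3 lower, beside 42.3% and 29.5% of all genes called. With the GC correction 0 of 7 were called under CDK4/6i at 72 hours, beside 29.5% of all genes. Under PRMT5i KCNAB2 was called lower with it (-0.38, edgeR adjusted p = 0.0353), beside 11% of all genes called. At 6 days 4 of 9 rose in A375 and 0 fell, beside 21.8% of all genes called higher and 43.1% called in all. The 4 were AKR1A1 (log2 fold change 0.91), AKR7A2 (0.57), KCNAB2 (0.82) and KCNAB3 (0.97). With the GC correction 0 of 7 were called, beside 43.2% of all genes. Under PRMT5i in CHL1 6 of 7 fell and 1 rose, beside 54% of all genes called. Among those lower were AKR1A1 (39.2 to 14.5 CPM in the mean) and AKR7A2 (45.9 to 14.1 CPM), and the one higher was KCNAB1, a potassium channel subunit of the same fold. AKR1A1 and AKR7A2 were the 2 still called with the GC correction, at -0.43 and -0.48 on the log2 scale. AKR1C4 had 0 counts in the CHL1 libraries and at most 0.659 CPM as a group mean in A375.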

How the data were processed

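The counts were deposited as a table of 20705 gene symbols by 18 libraries. The authors aligned paired-end reads of poly-A RNA to GRCh37 with HISAT2 2.0.4, per the submitters' processing notes, used HTSeq with defaults for counting and dropped lowly expressed genes by edgeR. Whether the counting used strand is not given in the sources used here. The name of the table speaks of normalized values, but all values are whole numbers and library totals differ, so they were treated as counts.

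The labels gave each library's line, treatment and time. edgeR 4.0.16 (R 4.3.3) was fitted with TMM scaling and a mean for each group to the 8 CHL1 libraries, the 10 A375 libraries, or all 18 for comparisons between lines, and p-values were adjusted over all 20705 genes. The test was run on simulated data with the same spread for all genes, a small set of changed genes and no GC trend. Since these libraries differ in all of this, it does not show how well the p-values hold here. Alternatives were a filter of 1 CPM in 2 libraries, scaling by median-of-ratios factors, DESeq2 1.42.0, fits of only the groups compared, a replicate block, leaving out each library and, for 13672 genes, a loess correction for GC content (span 0.4). Exon lengths and GC content came from GENCODE lifted to GRCh37. Fits without the libraries that have a GC trend, or of only the libraries with numbered replicates, were chosen after seeing the data. The genes followed and the lists were chosen with earlier results of these data known. Besides the members, the genes named are NFE2L2, KEAP1 and BACH1, other aldo-keto reductases, the list genes with the largest rise and fall in each comparison, the genes most like AKR1B10 and the drug targets and cell cycle genes. Whether equal replicate numbers in the labels pair libraries is not known. The correlation of replicate differences was 0.13 to 0.383 over the 3 pairs of A375 groups of 72 hours. In CHL1 it was -0.26 to 0.322, so the 2 ranges overlapped. Floors cover counting error only, since the reads carry no molecular identifiers.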

Additional observations from a re-analysis of the deposited data

Results flagged for a closer look

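The response to 72 hours of PRMT5i differed between the lines for 3 of the 6 members tested, by the interaction term of edgeR in the fit of 18 libraries. Of all genes 40.9% were called in this comparison, and DESeq2 called 2 of the 6 members. GCLM was 1.89 higher in CHL1 on the log2 scale (SE 0.36, edgeR adjusted p = 7.46e-04). AKR1B1 was -1.53 (SE 0.37, edgeR adjusted p = 0.00312) and HMOX1 -1.63 (SE 0.62, edgeR adjusted p = 0.0419) in CHL1 relative to A375. The GC trend of the 2 CHL1 PRMT5i libraries moved with these values, and with the GC correction none of the 3 was called. HMOX1 also lost its call without 1 library in 4 of 8 cases, with values between -1.54 and -1.07.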

How the results depend on the processing

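Of the counts of member DEGs under other settings, 66 stayed within 1.5 times the count reported and 14 did not. The share of all genes called in the same fit is given in brackets. In CHL1 after 72 hours of CDK4/6i the count was 1 (AKR1B1) in 3 fits. These were with only the groups compared (20.3%), without the libraries with a GC trend (10.1%) and with the GC correction (15.8%). In A375 at 72 hours it was 6 with only the groups compared (33.5%) and 7 with the replicate block (42.3%). There it was 5 with only the numbered libraries (31%) and 4 without the libraries with a GC trend (27.7%). In A375 at 6 days it was 3 with median-of-ratios scaling (42.2%), 2 with only the groups compared (28.3%) and 3 with the GC correction (43.2%). Under PRMT5i in A375 it was 5 with the replicate block (29.5%) and 2 with only the numbered libraries (15.8%). For the difference between lines it was 2 for CDK4/6i with only the groups compared (8.68%) and 1 for PRMT5i with the GC correction (24.7%). In CHL1 the correlation of replicate differences ran from -0.26 to 0.322 and overlapped with that of A375, so pairing by number is not established in either line. The replicate block kept the count of member DEGs within 1.5 times in CHL1 and between the lines.

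Leaving out 1 library gave counts of 0 to 1 for CHL1 at 6 days, 3 to 5 for CHL1 PRMT5i, 3 to 8 for A375 at 6 days, 0 to 4 for A375 6 days minus 72 hours, 3 to 4 for the controls and 2 to 3 for the difference in PRMT5i response. Over all genes, the share of DEGs that were higher went from 37.6% to 65.3% with the GC correction for the difference between lines under CDK4/6i, from 45.9% to 59.7% with it under PRMT5i, and from 33.5% to 47.8% with the replicate block for PRMT5i in A375.

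Single members' log2 fold changes turned direction in 20 instances under settings other than leaving out a library, and of these members' values only AKR1B1 in A375 at 6 days was called as reported. With the GC correction these were HMOX1 in CHL1 PRMT5i (0.37), AKR1C1 (0.043) and TXNRD1 (0.036) in A375 PRMT5i and TXNRD1 between the controls (-0.11). With the 72-hour control in A375 at 6 days they were AKR1B10 (-2.02, edgeR adjusted p = 0.0064), AKR1B1 (-0.076), AKR1C1 (0.12) and AKR1C3 (-0.33). AKR1B1 in A375 6 days minus 72 hours was -0.066 with median-of-ratios scaling and in DESeq2, -0.051 on the genes with a GC value and -0.35 with the GC correction. AKR1B10 between the controls was -0.0078 with median-of-ratios scaling and in DESeq2, -0.0031 with only the groups compared, -0.031 with the replicate block, -0.035 with the numbered libraries, -0.0017 without the libraries with a GC trend, -0.021 on the genes with a GC value and -0.12 with the GC correction.

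Members whose direction changed without 1 library had these ranges of log2 values. In the case of CHL1 after 72 hours of CDK4/6i they were GCLM -0.37 to 0.045 and TXNRD1 -0.022 to 0.28. For CHL1 after 6 days they were GCLM -0.18 to 0.66 and TXNRD1 -0.055 to 0.25. In the case of A375 after 72 hours of CDK4/6i they were TXNRD1 -0.11 to 0.15. For A375 after 6 days they were AKR1B10 -0.52 to 2.27, AKR1C1 -1.24 to 0.43 and AKR1C3 -0.29 to 0.99. In the case of A375 under PRMT5i they were AKR1C1 -0.11 to 0.087 and TXNRD1 -0.12 to 0.11. For A375 at 6 days minus 72 hours they were AKR1B10 -1.73 to 1.06, AKR1B1 -0.47 to 0.75, AKR1C2 -0.24 to 1.01 and AKR1C3 -0.80 to 0.48. In the case of CHL1 against A375 controls they were AKR1B10 -0.18 to 0.25, NQO1 -0.22 to 0.16, HMOX1 -0.095 to 0.47 and TXNRD1 -0.020 to 0.29. For the CDK4/6i response in CHL1 minus A375 they were GCLM -0.13 to 0.43 and TXNRD1 -0.099 to 0.24. With 2 replicates, the lone library left in a group is taken to vary like the other groups. The causes of these changes were not tested.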
